A study of Mus musculus with 10 samples.

Results

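The genes described here make cholesterol and fatty acids: a named list of 30 genes in 4 roles, followed across 10 mouse melanomas. The list holds 17 enzymes of the sterol pathway, 4 genes that control it, 1 sterol carrier and 8 enzymes of fatty acid synthesis. A probe on the array named 28 of them, and 27 were detected (detection p under 0.05) on 3 or more of the 10 arrays, out of 11984 genes in all. Hmgcs1 and Fdft1 had no named probe, and the only probe of Acaca was detected on 0 of 10 arrays, so these 3 members have no value below. The tumors came from C57BL6 mice labelled BrafV600E-CDK4R24C, which carry an activated BRAF kinase and a CDK4 variant known to escape its INK4 inhibitors. In both groups tamoxifen had been put on the skin on 4 days in a row to switch on the BRAF allele, and 1 dose of the carcinogen DMBA followed. The labels sort the excised, frozen tumors into 5 pigmented and 5 MPNST-like melanomas, the latter also called amelanotic; MPNST is the usual short name of malignant peripheral nerve sheath tumors. The sources used here do not give the driver of the recombinase, the age of the mice or whether each tumor came from its own animal, so p-values measure the spread between these tumors. The comparison asks how the RNA of this pathway differs between pigmented and MPNST-like tumors.

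Cholesterol is built from acetyl-CoA through mevalonate, isoprenoid diphosphates, squalene and lanosterol. The transcription factor SREBP2 (gene Srebf2) drives most of these enzymes, and SREBP1 (Srebf1) mainly drives those of fatty acid synthesis. SCAP carries both factors to the Golgi for cleavage when membrane sterol is low, and INSIG1 holds them back in the endoplasmic reticulum when it is high. In skin, sebaceous glands, fat and the epidermis also make much lipid, so markers of these tissues are given beside the genes they move with. A binding site for SREBP, the sterol regulatory element, lies in the promoters of many of these genes.

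The array medians lay between 79.4 and 89.0 intensity units in pigmented and between 87.4 and 93.9 in MPNST-like tumors. Of the probes, 17908 to 20120 were detected in pigmented and 19274 to 21581 in MPNST-like tumors. Values are log2 normalised intensities, differences are MPNST-like minus pigmented, and a gene was called where limma's adjusted p over all 11984 genes was under 0.05. The melanocyte label was checked on 8 pigment cell markers, of which 8 were lower in MPNST-like tumors. Their mean level, each marker taken around its own mean, ran from 2.63 to 2.98 in the pigmented tumors. In MPNST-like tumors 1 to 5 it was −4.71, −4.17, −2.15, −2.97 and 0.07, so tumor 5 stood above the other 4, and its Dct, a melanin enzyme, at 14.01 lay inside the pigmented range. All 7 fibroblast markers (−3.07 to 0.23 in pigmented, 1.54 to 2.23 in MPNST-like) and 7 of 8 macrophage markers (−1.82 to 0.25, and 0.13 to 1.75) were higher there. Of 8 myelin and Schwann cell markers 3 were higher, Gap43 (5.14), Ngfr (4.15) and Egr2 (2.92), and Sox10 (−0.87) was lower. Their mean level lay between −1.38 and 0.03 in the pigmented and 0.18 and 0.98 in the MPNST-like tumors, without overlap. The part of these pigment cell, fibroblast, macrophage and Schwann cell markers in the results below was not tested. Skeletal muscle markers were high in pigmented tumor 4 (3.33) and in MPNST-like tumors 2 (3.89) and 5 (3.96), and in the other tumors lay between −2.87 and −0.05. In bulk tissue, fewer cells of a type and less RNA per cell cannot be told apart.

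Of the 27 measured members, 15 were lower and 1 was higher in MPNST-like tumors, against 20.2% lower and 18.6% higher (38.8% in either direction) among all genes tested. The 15 make up 55.6% of the measured members. The median difference of the members was −0.79, whereas the median of all genes was 0.011. In 10 members every MPNST-like tumor lay below every pigmented tumor, and in 0 members above. Among all genes 13.8% were separated downward and 12.1% upward (25.9% in either direction). Without MPNST-like tumor 5, which stood apart in pigment cell markers, 15 members were lower and 0 higher. Among all 11984 genes 2057 were lower and 1968 higher in that fit. Without the 3 tumors high in muscle RNA 13 members were lower and 1 was higher, against 1703 lower and 1705 higher among all genes. With arrays scaled to a common median, which puts the median of all genes at 0.33, 8 members were lower and 1 was higher, against 7.53% lower and 32.1% higher among all genes. That scaling lost the calls of Sqle, Msmo1, Dhcr7, Insig1, Srebf2, Scd2 and Me1. Among the sterol enzymes 9 of 15 were lower and 0 were higher, with a median of −1.03. Of the 4 control genes 2 were lower (median −0.53, and −0.01 with median scaling), and the sterol carrier was lower. Among the fatty acid enzymes 3 of 7 were lower and 1 was higher, with a median of −0.23.

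**Figure D1:**
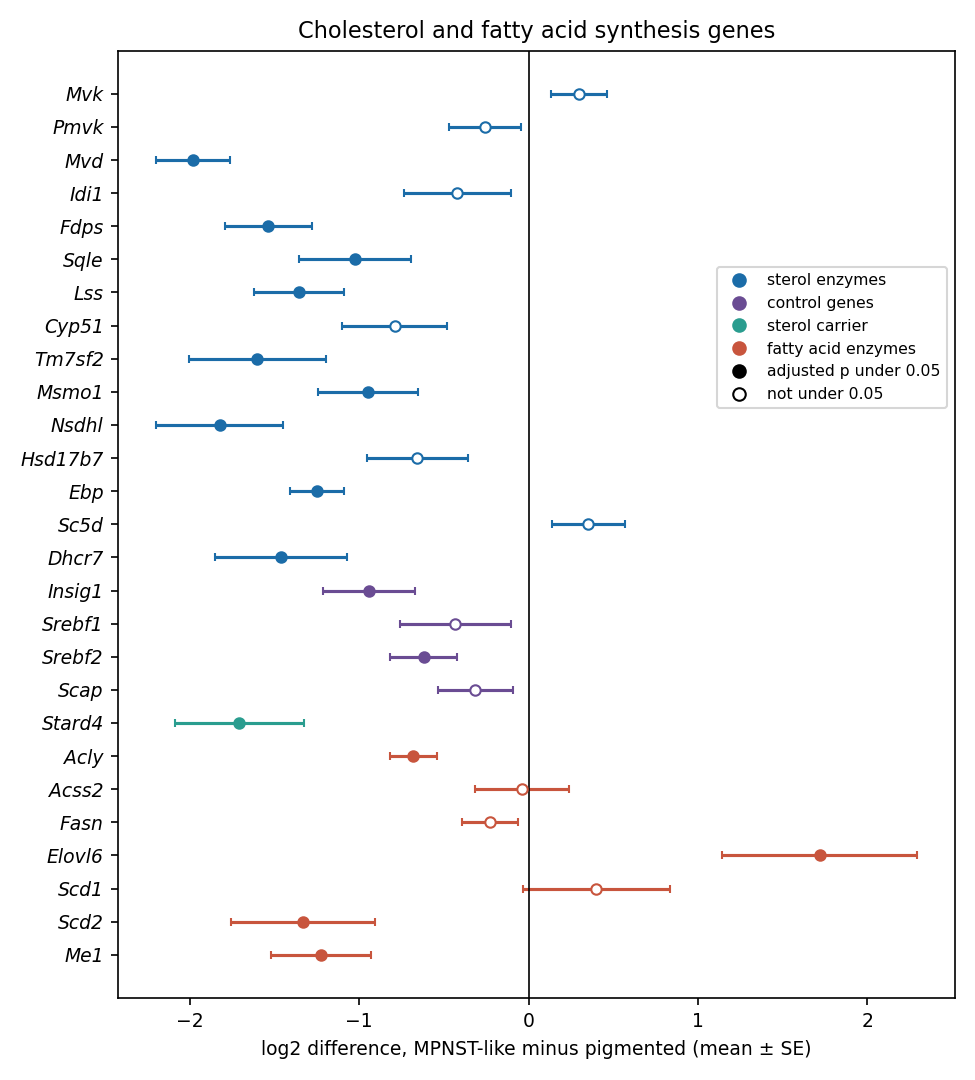
Difference in log2 normalised intensity between MPNST-like and pigmented tumors for the 27 measured members (x axis, mean ± SE, 5 tumors a group), ordered and coloured by role. Filled points passed an adjusted p of 0.05. All filled points but Elovl6 lie left of 0, and the blue sterol enzymes reach from −1.98 (Mvd) to 0.35 (Sc5d).

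The early steps of the sterol pathway, which turn mevalonate into isoprenoid units, differed from each other. Mvk, which phosphorylates mevalonate first, did not pass the test (0.30 ± 0.16 SE, adjusted p = 0.17), and its probe was detected in 2 of 5 pigmented and 4 of 5 MPNST-like tumors. Pmvk, the next kinase, did not pass either (−0.26 ± 0.21, adjusted p = 0.36). Mvd makes isopentenyl diphosphate by removing a carboxyl group, and by the brightest probe of each gene it had the largest fall of the members. Its log2 level was 7.81, 8.22, 7.83, 7.37 and 7.98 in pigmented tumors 1 to 5. In MPNST-like tumors 1 to 5 it was 6.18, 5.76, 5.77, 5.31 and 6.28. The groups were separated by more than 1 log2 unit, and neither held a tumor out of line with the rest. The difference was −1.98 ± 0.22 (SE), which is 3.95-fold lower (adjusted p = 9.3e-05). Idi1, which isomerises that product, read 5.93, 7.57, 5.93, 5.84 and 5.74 in pigmented and 5.88, 5.65, 5.62, 5.84 and 5.92 in MPNST-like tumors. The pigmented tumor 2 alone stood high for Idi1, the other 9 were alike, and the gene was not called (−0.42 ± 0.32, adjusted p = 0.31). Fdps, which joins isoprenoid units into farnesyl diphosphate, the branch point toward sterols, read 11.00, 11.41, 11.13, 10.45 and 11.39 in pigmented tumors and 10.14, 8.99, 9.24, 9.42 and 9.90 in MPNST-like tumors. The groups did not overlap, and Fdps was 2.90-fold lower (adjusted p = 9.9e-04). Its weaker probe read −0.81 and did not pass (adjusted p = 0.089).

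Of the 3 measured steps from squalene through lanosterol demethylation, 2 were lower. Sqle, the oxygen-dependent squalene epoxidase and a rate-limiting enzyme, was 2.04-fold lower (−1.03 ± 0.33, adjusted p = 0.030), with the lowest pigmented tumor at 8.96 and the highest MPNST-like tumor at 9.0. The groups thus overlapped slightly, and the call was lost without pigmented tumor 3 or 5 or MPNST-like tumor 2 or 3 (adjusted p from 0.053 to 0.069). Lss closes the ring to lanosterol. It read 7.35, 8.64, 7.55, 7.10 and 7.69 in pigmented and 6.69, 6.12, 6.43, 6.08 and 6.24 in MPNST-like tumors. These groups did not overlap, and Lss was 2.55-fold lower (adjusted p = 0.0025). A dimmer probe for Lss read 0.12 (adjusted p = 0.67), so the probes of this gene disagree. Cyp51, the lanosterol demethylase, missed the threshold (−0.79 ± 0.31, adjusted p = 0.064), and passed it without pigmented tumor 4 (−0.97, adjusted p = 0.028).

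Of the 7 measured enzymes after lanosterol demethylation, 5 fell. Tm7sf2, a sterol reductase of the nuclear envelope and endoplasmic reticulum, was 3.03-fold lower (adjusted p = 0.0098). Its pigmented tumors spread from 5.23 to 7.75, while the MPNST-like tumors lay between 4.29 and 4.83. The MPNST-like values were near the background, with the probe detected in 4 of 5 of these tumors, which limits the fold size. Msmo1, which starts removal of the methyl groups next to the sterol hydroxyl, was 1.93-fold lower (adjusted p = 0.026), and its groups did not overlap. That call was lost without MPNST-like tumor 1 (adjusted p = 0.053) or 2 (adjusted p = 0.063). Nsdhl works with it in the same demethylation. Nsdhl read 7.46, 8.57, 7.70, 6.27 and 7.73 in pigmented tumors and 6.46, 5.21, 5.74, 5.67 and 5.53 in MPNST-like tumors. Pigmented tumor 4 fell below MPNST-like tumor 1, and the gene was 3.54-fold lower all the same (adjusted p = 0.0032). The other detected probes of Nsdhl read −2.18, −1.75 and −1.03. Hsd17b7, the ketoreductase of the same complex, read 9.03, 10.68, 9.16, 9.02 and 9.04 in pigmented and 8.74, 8.72, 8.56, 8.87 and 8.75 in MPNST-like tumors. Every MPNST-like tumor lay lower, yet the wide value of pigmented tumor 2 left the difference of −0.66 ± 0.30 short of the threshold (adjusted p = 0.10). Without that tumor it was −0.33 (adjusted p = 0.047). Ebp, the sterol isomerase that also binds the drug emopamil, read 9.65, 9.91, 10.11, 9.89 and 10.14 in pigmented tumors. It read 8.97, 8.66, 8.62, 8.86 and 8.34 in MPNST-like tumors. Ebp was even within each group, with SDs of 0.20 and 0.24, and was 2.37-fold lower (adjusted p = 2.2e-04). Sc5d, the sterol desaturase before the last reduction, was detected in 1 of 5 pigmented and 5 of 5 MPNST-like tumors and was not called (0.35 ± 0.21, adjusted p = 0.22). Dhcr7 catalyses that last reduction, and loss of it causes Smith-Lemli-Opitz syndrome in humans. It was 2.75-fold lower (−1.46 ± 0.39, adjusted p = 0.012), with MPNST-like tumor 1 at 6.39 above pigmented tumor 4 at 6.27. The Dhcr7 call was lost with median scaling (−0.93, adjusted p = 0.055) and with the level of keratinocyte markers as a covariate.

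**Figure D2:**
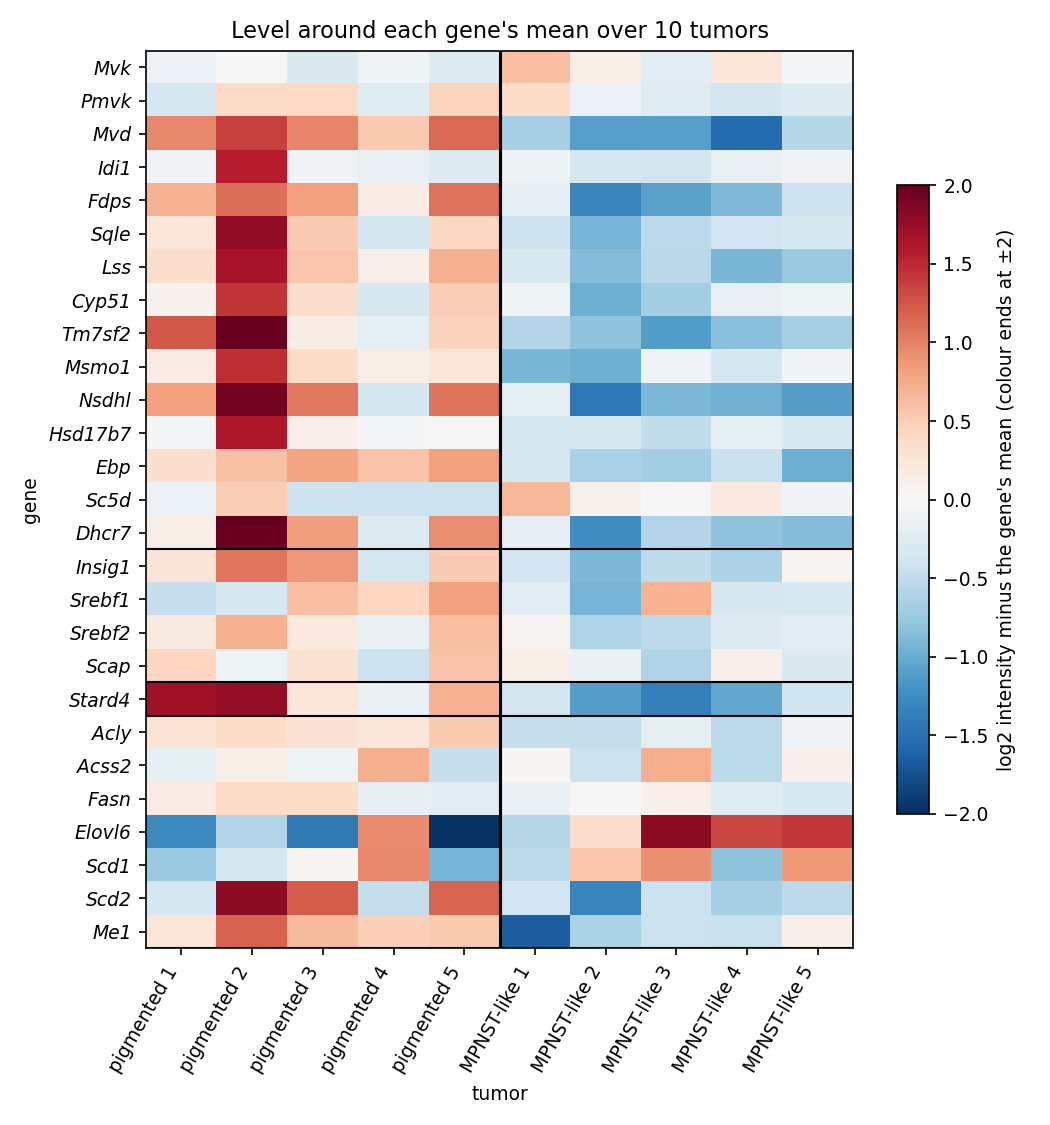
Level of each measured member (rows, grouped by role) in each of the 10 tumors (columns), as the log2 difference from the gene's mean over all tumors, with colours ending at −2 and 2. The column of pigmented 2 is the highest of its group in 13 of the 15 sterol enzymes. Elovl6 and Scd1 are highest of that group in pigmented 4.

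The control genes differed by −0.94 to −0.31. Insig1, whose product retains SCAP and whose own transcription is an SREBP target, was 1.92-fold lower (−0.94, adjusted p = 0.018). It read 8.31, 9.12, 8.91, 7.70 and 8.55 in pigmented tumors and 7.67, 7.14, 7.54, 7.42 and 8.11 in MPNST-like tumors. Pigmented tumor 4 and MPNST-like tumor 5 crossed over, and the other 8 kept apart. With median scaling Insig1 differed by −0.44 (adjusted p = 0.18), and it missed the threshold on each chip alone and with the level of keratinocyte (adjusted p = 0.12) or sebaceous gland markers (adjusted p = 0.056) as a covariate. Srebf2 was 1.54-fold lower (−0.62 ± 0.20, adjusted p = 0.028). Its pigmented tumors read 7.54, 8.07, 7.56, 7.23 and 7.97, and the MPNST-like tumors read 7.42, 6.76, 6.85, 7.12 and 7.14. Of the pigmented tumors only tumor 4 lay below the highest MPNST-like tumor. The Srebf2 call was lost without pigmented tumor 2 or 5 or MPNST-like tumor 2 or 3 (adjusted p from 0.053 to 0.068), and scaling arrays to a common median left a difference of −0.07 (adjusted p = 0.82). Srebf1 (−0.43 ± 0.33, adjusted p = 0.32) and Scap (−0.31 ± 0.22, adjusted p = 0.28) were not called. The difference between Srebf1 and Srebf2 within a tumor averaged 0.19 higher in MPNST-like tumors, which an exact two-sided permutation test did not separate from 0 (p = 0.67).

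Stard4 moves cholesterol between membranes and is itself induced when sterol is low. It read 9.86, 9.92, 8.40, 8.02 and 8.85 in pigmented tumors. In MPNST-like tumors it read 7.79, 7.06, 6.80, 7.11 and 7.76. The lowest pigmented tumor was still above the highest MPNST-like tumor, and pigmented tumors 1 and 2 stood about 1 unit or more above the others of their group. Stard4 was 3.27-fold lower (−1.71 ± 0.38, adjusted p = 0.0051), and of the 16 called members only this one kept its call under all 29 alternatives tried.

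Fatty acid synthesis split between its steps. Acly, which cuts citrate into the cytosolic acetyl-CoA used for both lipids, read 11.34, 11.43, 11.34, 11.30 and 11.58 in pigmented and 10.60, 10.58, 10.88, 10.53 and 10.98 in MPNST-like tumors. The tumors of each group were close to each other, the groups did not overlap, and Acly was 1.60-fold lower (adjusted p = 0.0029). Me1, the cytosolic malic enzyme that supplies NADPH, was 2.34-fold lower (adjusted p = 0.0079). Its pigmented tumors spanned 7.16 to 8.10 and its MPNST-like tumors 5.27 to 7.03. With median scaling the Me1 difference was −0.70 (adjusted p = 0.11). Acss2, which makes acetyl-CoA from acetate, did not differ beyond its spread (−0.04 ± 0.28, adjusted p = 0.92). Fasn, the fatty acid synthase itself, was near the background of this array, detected in 3 of 5 pigmented and 2 of 5 MPNST-like tumors. Its difference of −0.23 ± 0.16 was not called (adjusted p = 0.30), and the dim signal limits what this value can show.

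Elovl6, which lengthens palmitate to stearate, was the only called member that rose. It read 6.40, 7.09, 6.26, 8.62 and 5.69 in pigmented tumors and 7.10, 8.01, 9.46, 9.0 and 9.08 in MPNST-like tumors. Pigmented tumor 4 lay above MPNST-like tumors 1 and 2, and MPNST-like tumor 1 was as low as pigmented tumor 2. The difference was 1.72 ± 0.57, or 3.29-fold (adjusted p = 0.035), and a dimmer probe read 0.73 (adjusted p = 0.026). The call of the brighter probe was lost without pigmented tumor 1, 3 or 5 or MPNST-like tumor 3, 4 or 5 (adjusted p from 0.075 to 0.086), and on chip 1 of the array Elovl6 read 0.81 (adjusted p = 0.40). Scd1, the stearoyl-CoA desaturase typical of sebaceous gland and fat, was not called (0.40 ± 0.43, adjusted p = 0.49). It read 10.54, 10.96, 11.30, 12.24 and 10.35 in pigmented and 10.75, 11.83, 12.19, 10.47 and 12.15 in MPNST-like tumors. Scd1 was thus high in pigmented tumor 4 and in MPNST-like tumors 2, 3 and 5. Its relative Scd2, a desaturase best known from brain and from early skin development in mice, fell 2.52-fold (−1.33 ± 0.43, adjusted p = 0.029). Scd2 read 6.54, 8.68, 8.11, 6.43 and 8.06 in pigmented tumors and 6.52, 5.58, 6.46, 6.23 and 6.37 in MPNST-like tumors. Only pigmented tumors 2, 3 and 5 were high for it, and its call was lost without pigmented tumor 2, 3 or 5 or MPNST-like tumor 2 or 4 (adjusted p from 0.054 to 0.071). The gap between Scd1 and Scd2 within a tumor was 1.73 wider in MPNST-like tumors, with an exact two-sided permutation p of 0.056 (0.11 over the 2 gene pairs compared, which were chosen after their values were seen). The smallest p that test can give is 0.0079.

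**Figure D3:**
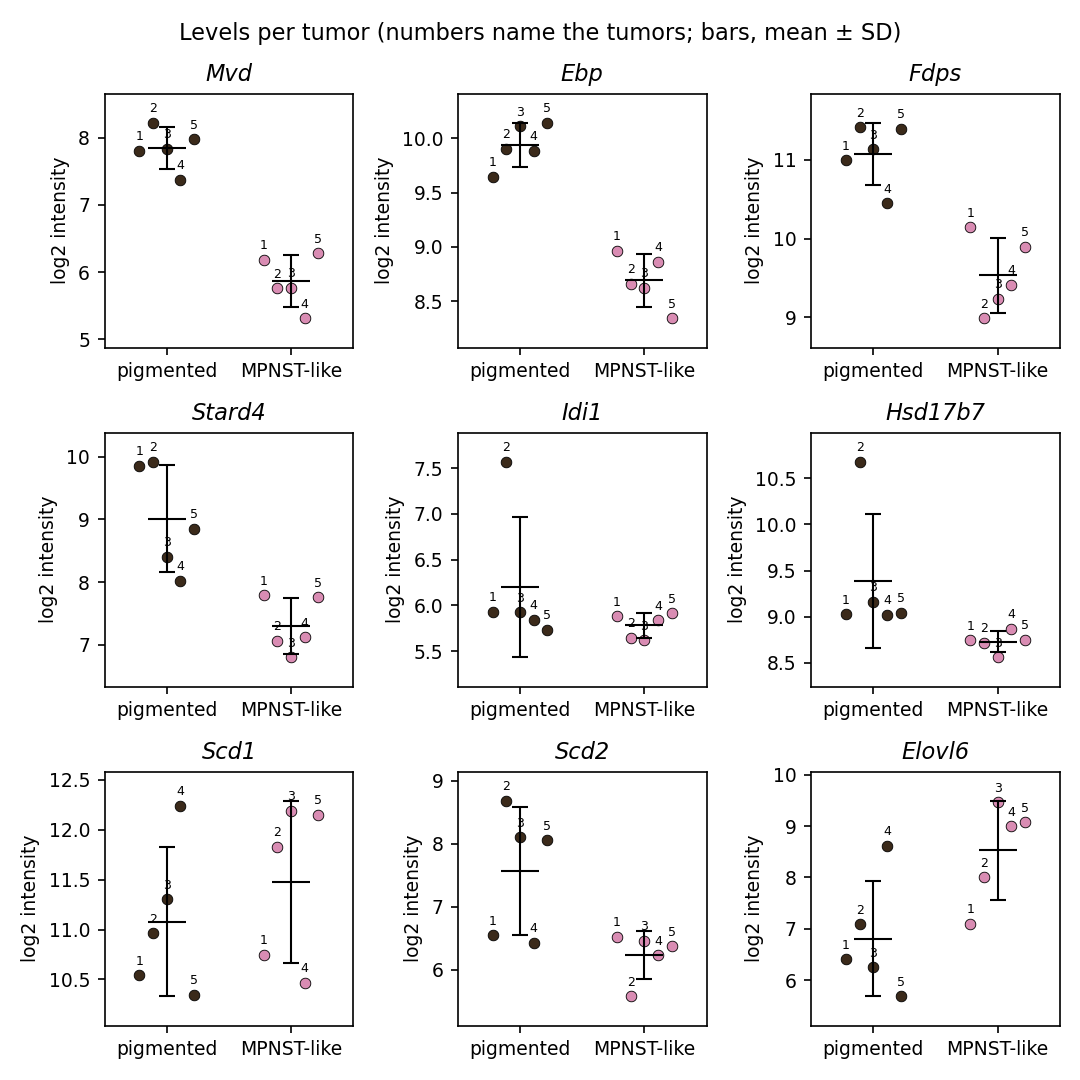
Log2 normalised intensity (y axes) of 9 members in each tumor, with pigmented and MPNST-like tumors side by side, numbers naming the tumors and bars at the mean ± SD of the 5 tumors. Mvd, Ebp, Fdps and Stard4 show groups that do not overlap, whereas Elovl6 and Scd2 have tumors of one group inside the range of the other.

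Markers of skin and fat are given here beside Elovl6 and Scd1. The mean level of 12 keratinocyte markers, each taken around its own mean, was −1.36, −0.40, −1.21, 1.07 and −1.76 in pigmented tumors 1 to 5. It was −1.60, 1.24, 1.44, 1.29 and 1.29 in MPNST-like tumors 1 to 5, and 3 of the 12 markers were called higher there. Pigmented tumor 4 and MPNST-like tumors 2 to 5 were thus high in these markers, and the other tumors were low. Elovl6 read 8.01 to 9.46 in the tumors high in these markers and 5.69 to 7.10 in the others, while Scd1 was low in MPNST-like tumor 4. Of 12 sebaceous gland markers, Awat1, Mogat1, Far2 and Scd3 were not detected on 3 arrays. Of the 8 measured ones 0 were higher and 1 was lower, Pparg (−2.51, adjusted p = 0.0042), a nuclear receptor that is not specific to the gland. The mean level of the 6 left without Pparg and without Elovl3, which is also listed among the fatty acid genes, was −0.75, −0.45, −0.41, 0.96 and −0.85 in pigmented and −1.01, 0.59, 1.12, 0.26 and 0.55 in MPNST-like tumors. Of 9 fat cell markers 0 were higher and 1 was lower. Their mean level was −0.61, −0.57, 0.22, 1.0 and −0.94 in pigmented and −1.22, 1.36, 0.27, −0.91 and 1.41 in MPNST-like tumors, low in MPNST-like tumor 4 as Scd1 was. With the keratinocyte level as a covariate, Elovl6 differed by 0.57 (adjusted p = 0.22), and 0 members were called higher. In the same fit 9 members were called lower, 6 of them sterol enzymes. The lower calls of Sqle, Tm7sf2, Dhcr7, Insig1, Scd2 and Srebf2 (−0.38, adjusted p = 0.20) were lost. The median of the sterol enzymes was −1.11. Among all 11984 genes 1492 (12.4%) were lower and 1488 higher in that fit. With the sebaceous gland level of the 6 markers Elovl6 differed by 0.98 (adjusted p = 0.035), and 11 members were lower and 1 was higher. Among all genes 1914 were lower and 1937 higher in that fit. With the fat cell level Elovl6 differed by 1.53 (adjusted p = 0.038), and 15 members were lower and 1 was higher. Among all genes 2394 were lower and 2366 higher in that fit. These covariates were chosen after seeing the data.

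**Figure D4:**
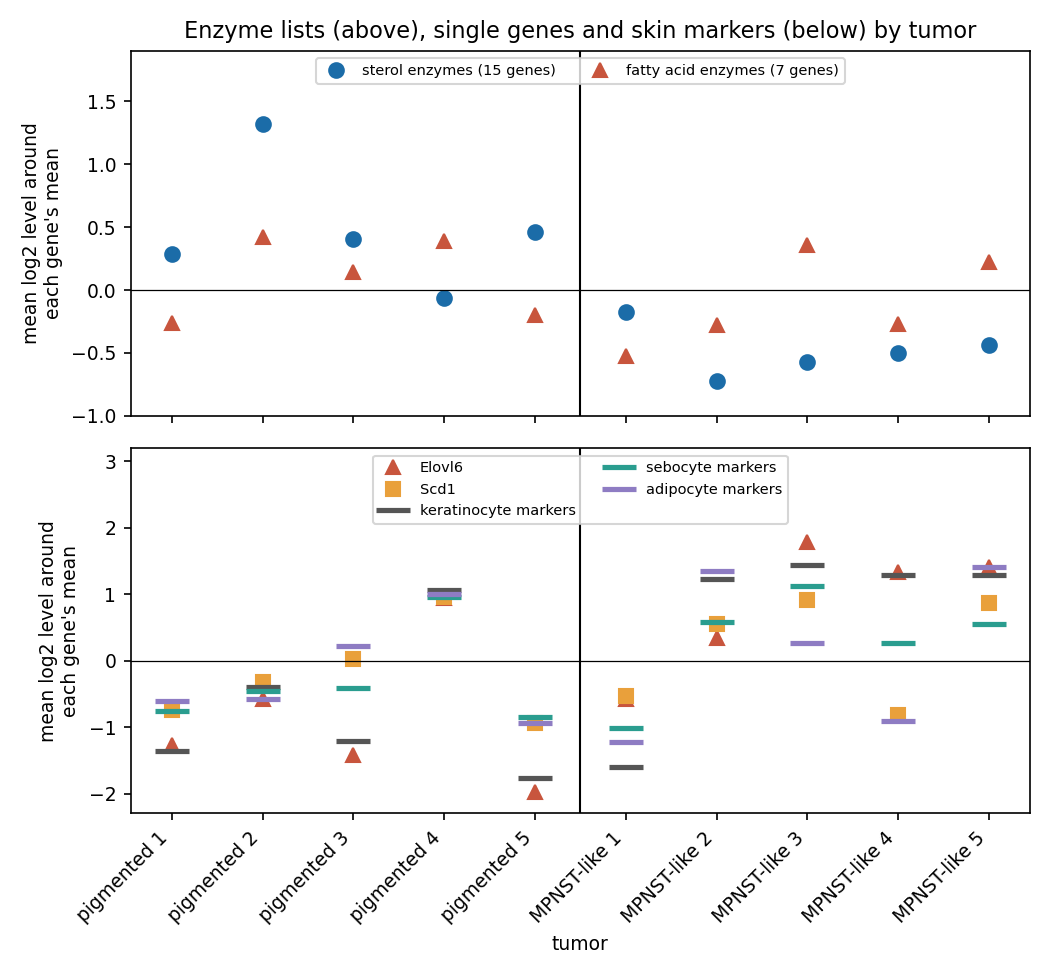
Mean log2 level, each gene taken around its own mean over the tumors, of the sterol and fatty acid enzymes (upper panel) and of Elovl6, Scd1 and 3 sets of skin markers (lower panel) in each tumor. All 5 MPNST-like tumors lie below all 5 pigmented tumors for the sterol enzymes, and Elovl6 and Scd1 are high in pigmented 4, where the 3 sets of markers are high too, while MPNST-like 4 is high for Elovl6 and the keratinocyte markers and low for Scd1 and the adipocyte markers.

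The mean level of the 15 sterol enzymes was 0.29, 1.32, 0.41, −0.06 and 0.46 in pigmented and −0.17, −0.72, −0.57, −0.50 and −0.44 in MPNST-like tumors. Pigmented tumor 2 stood far above the other 4, and the gap between pigmented tumor 4 and MPNST-like tumor 1 was small. Pigmented tumor 2 was the highest of its group in 13 of 15 sterol enzymes and in 19 of 27 members, whereas it was the highest in 2844 of all 11984 genes. Over the mean of the other 4 pigmented tumors it was up by a median of 1.26 for the sterol enzymes, compared with −0.07 for all genes. The rise was widest for Tm7sf2 (1.92), Idi1 (1.71), Dhcr7 (1.66), Hsd17b7 (1.61) and Sqle (1.57), and Ebp showed none (−0.04). Of the fatty acid enzymes only Scd2 came near these, at 1.40. Pigmented tumor 4 took the other end of its group, as the lowest in 10 of 15 sterol enzymes, against 2409 of all genes. Without pigmented tumor 2 the median of the sterol enzymes was −0.71, with 14 members lower and 2 higher, Sc5d being the addition (0.52, adjusted p = 0.035). Among all 11984 genes 2620 were lower and 2222 higher in that fit. Sc5d was detected in 1 of 5 pigmented and 5 of 5 MPNST-like tumors. Its values in the 4 pigmented tumors of that fit, 4.20 to 4.52, lay near the background. Without pigmented tumors 2 and 4, 17 members were lower and 1 was higher, against 2718 lower and 2259 higher among all genes.

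The names of the 10 arrays begin with 2 different numbers, taken here as 2 chips, each with tumors of both groups. All 16 called members had the same sign on both. The median of the sterol enzymes was −1.59 on chip 1, which holds tumors 1 and 2 of each group, and −0.59 on chip 2. With 2 tumors a group, 1 member was called lower on chip 1, against 1.13% of all genes. On chip 2, 9 were lower and 1 was higher, against 14.9% and 13.3% of all genes. With the chip as a block 15 members were lower and 1 was higher, as without it.

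Other genes of sterol and fatty acid metabolism also held more lower than higher calls. Of 76 further genes listed for the pathway 55 were measured, and 22 were lower and 4 higher, with a median of −0.37, against the 20.2% lower and 18.6% higher among all genes. Among 20 other genes of fatty acid and glyceride synthesis 11 were lower, led by Lpin1 (−1.93), a phosphatidate phosphatase, and Acsl3 (−1.85), an acyl-CoA synthetase of lipid droplets. Slc25a1 (−1.80), which exports the citrate that Acly cuts, and Acacb (−1.69), the mitochondrial acetyl-CoA carboxylase, were next, and Fads3 (1.51) alone was higher. Cholesterol uptake and efflux held 4 lower genes among 9: the lysosomal lipase Lipa (−2.08), the lysosomal cholesterol exporters Npc1 (−1.39) and Npc2 (−0.76), and Stard3 (−0.82), which tethers late endosomes. The lipoprotein receptor Lrp1 (1.69) was higher. Of 11 further genes of SREBP and LXR control, Mid1ip1 rose (0.64) and Mylip, a ubiquitin ligase induced by LXR, fell (−0.56). Of 3 further mevalonate and sterol genes, the farnesyltransferase subunits went apart, Fnta at 0.74 and Fntb at −0.99. Fatty acid oxidation had 3 lower genes of 9, Acadl (−1.78), Hadha (−1.0) and Slc25a20 (−0.58). Of 3 measured genes that supply NADPH, Idh2 (−1.59) and Me2 (−1.0) were lower.

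Promoter sequences were searched for motifs of the factors that control the pathway. RefSeq promoters (250 bases before to 50 after the start, mouse build GRCm38.p6) were matched by symbol for 24 of the 30 members, giving 31 promoters. They were searched on both strands for TCACNCCAC, a form of the sterol regulatory element, which was in 1 of 31, that of Hmgcs1, and in 1.24% of all 32851 promoters. The shorter TCACNCCA was in 3 of 31 (9.68%), those of Hmgcs1, Msmo1 and Srebf2, against 4.36% of all. CCAAT, the box bound by NF-Y, a known partner of SREBP, was in 22 of 31 (71.0%) against 37.4% of all promoters and 37.1% of the promoters of tested genes. GGGCGG, the core of an Sp1 site, was in 23 of 31 (74.2%) against 35.7% of all and 59.6% of those of tested genes. CCAAT was held by 11 of 11 called lower genes with a promoter and by 10 of 13 other members. For GGGCGG the counts were 11 of 11 and 9 of 13, and both of these motifs were searched after the sterol element had been. The 13 other members include Hmgcs1 and Acaca, which have no value, and Elovl6, which rose. A gene counted if any of its promoters held the motif. A match is a description of letters in the window and not a bound site.
Srebf2 (chr15:82147019-82147318, plus strand) and Msmo1 (chr8:64733529-64733828, minus strand) are printed because they hold the shorter sterol element, Mvd (chr8:122443373-122443672, minus strand) and Ebp (chrX:8193463-8193762, minus strand) because they had the smallest adjusted p, and Elovl6 (chr3:129532136-129532435, plus strand) because it rose. Capitals mark TCACNCCA, CCAAT and GGGCGG on either strand, which do not overlap in these windows.
Srebf2: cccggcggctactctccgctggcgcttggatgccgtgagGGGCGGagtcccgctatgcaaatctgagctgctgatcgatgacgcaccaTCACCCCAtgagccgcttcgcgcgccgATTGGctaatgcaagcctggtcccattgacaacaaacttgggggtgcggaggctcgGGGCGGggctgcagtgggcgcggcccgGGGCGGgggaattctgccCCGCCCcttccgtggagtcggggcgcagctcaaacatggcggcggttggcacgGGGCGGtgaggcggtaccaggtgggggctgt
Msmo1: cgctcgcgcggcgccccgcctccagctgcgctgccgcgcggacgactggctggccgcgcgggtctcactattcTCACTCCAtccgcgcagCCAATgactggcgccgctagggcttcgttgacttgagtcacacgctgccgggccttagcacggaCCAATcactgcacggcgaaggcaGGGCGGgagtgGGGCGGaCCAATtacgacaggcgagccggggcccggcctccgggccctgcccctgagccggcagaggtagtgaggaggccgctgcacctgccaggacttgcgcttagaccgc
Mvd: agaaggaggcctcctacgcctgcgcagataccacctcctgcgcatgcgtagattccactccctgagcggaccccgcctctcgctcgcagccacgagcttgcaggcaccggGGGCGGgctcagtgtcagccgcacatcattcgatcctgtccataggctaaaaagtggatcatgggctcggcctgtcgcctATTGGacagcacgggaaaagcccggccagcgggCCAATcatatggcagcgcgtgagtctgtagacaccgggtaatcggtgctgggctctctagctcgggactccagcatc
Ebp: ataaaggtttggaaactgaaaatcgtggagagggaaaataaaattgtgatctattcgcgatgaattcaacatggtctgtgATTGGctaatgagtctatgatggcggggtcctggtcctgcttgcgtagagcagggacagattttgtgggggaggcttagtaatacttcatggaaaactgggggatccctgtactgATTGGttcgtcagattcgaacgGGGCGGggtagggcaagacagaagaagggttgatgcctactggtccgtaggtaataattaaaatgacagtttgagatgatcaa
Elovl6: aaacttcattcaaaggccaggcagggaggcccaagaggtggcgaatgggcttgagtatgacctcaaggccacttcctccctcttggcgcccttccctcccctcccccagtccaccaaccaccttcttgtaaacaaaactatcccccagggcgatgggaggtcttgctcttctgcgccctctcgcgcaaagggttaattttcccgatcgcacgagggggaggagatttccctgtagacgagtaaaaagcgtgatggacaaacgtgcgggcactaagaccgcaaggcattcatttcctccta
The Srebf2 promoter holds 1 shorter sterol element, 1 CCAAT and 5 GGGCGG. The Msmo1 promoter holds 1, 3 and 2 of these. Mvd and Ebp each hold 2 CCAAT and 1 GGGCGG and no sterol element of either form, and the window of Elovl6, the gene that rose, holds none of these motifs.

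**Figure D5:**
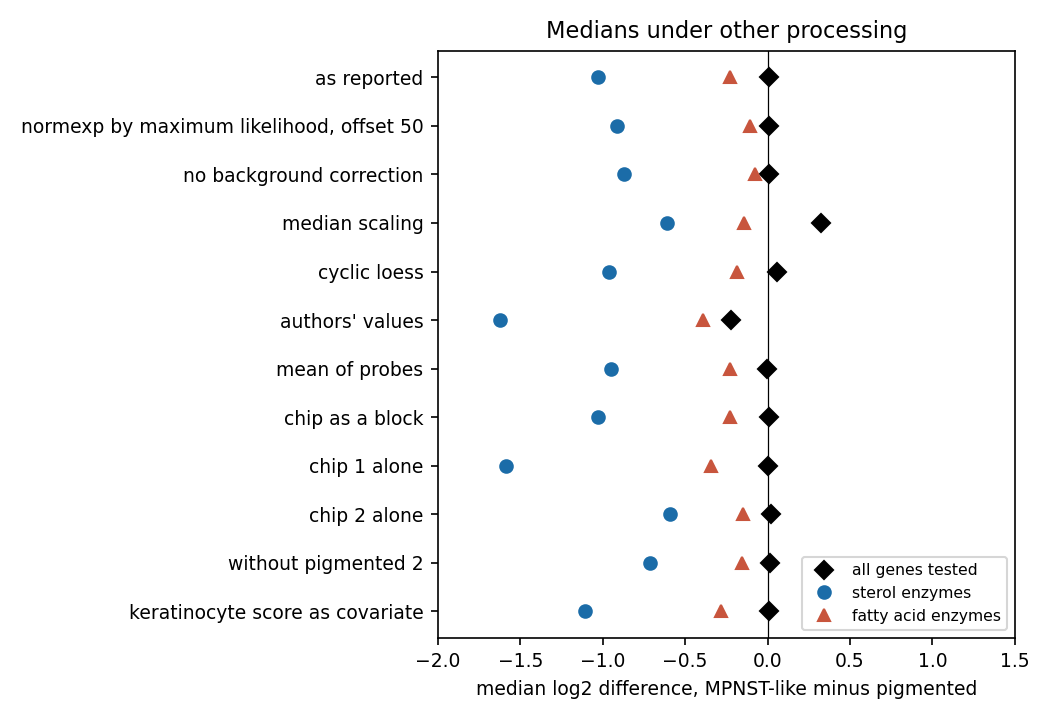
Median log2 difference, MPNST-like minus pigmented (x axis), of the sterol enzymes, the fatty acid enzymes and all genes tested under other processing choices (rows). The sterol enzymes stay between −1.63 and −0.59 and left of all genes in every row shown, while the fatty acid enzymes stay between −0.39 and −0.08.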

How the data were processed

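RNA of 10 frozen tumors (100 ng each) was hybridised as biotinylated cRNA to Illumina mouse arrays, per the labels. The deposited non-normalised table holds a signal intensity and a detection p-value for 45281 probes on each array, per the file headers. The scanner software is not given in the sources used here. The authors' deposited values of the same arrays are on a log2 scale with medians from 4.79 to 5.00. Taken off the log2 scale, they followed a straight line in the intensity within each array (R² = 1). The slopes ran from 0.578 to 1.10 in MPNST-like and from 1.11 to 2.62 in pigmented tumors. These values were used as an alternative, with their normalization unknown.

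With limma 3.58.1 in R 4.3.3, intensities were background-corrected, given an offset of 16, quantile normalised and put on the log2 scale (neqc). Since the offset and background compress dim probes, small fold changes of these are understated. Of the probes, 34885 had 1 gene symbol, 18 several and 10378 none, and symbols matched through Entrez identifiers in RefSeq differed in 0 of 34807. Probes with a detection p under 0.05 on 3 of 10 arrays were kept (22480), and the brightest probe stood for each of 11984 genes. Groups of 5 were compared with lmFit and eBayes and Benjamini-Hochberg adjustment over all genes. The script was tested on simulated data.

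All measured members are given. From each other list up to 4 called genes with the largest differences were named, and Npc2, Fads3 and Dct were added after their values were seen. The members and lists were chosen with earlier results of these data known. Other normalizations, filters, thresholds, chips, leaving out tumors and marker covariates were tried. Precision is limited by the number of arrays and, for dim probes, by the signal. Figures used matplotlib 3.10.9 in Python 3.11.15.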

Additional observations from a re-analysis of the deposited data

Results flagged for a closer look

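In 3 of 54 groups of 5 tumors tested over the 27 members, 1 tumor lay apart from the other 4 by more than Dixon's criterion allows (a gap of over 0.71 of the range). Chance flags about 1 in 20 groups. All 3 were pigmented tumor 2 and sterol enzymes. Idi1, the isopentenyl diphosphate isomerase, was at 7.57 there, with the other pigmented tumors between 5.74 and 5.93. Msmo1, the methylsterol monooxygenase, was at 11.47, with the others between 10.12 and 10.36. Hsd17b7, the ketoreductase that acts after it, was at 10.68, with the others between 9.02 and 9.16.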

How the results depend on the processing

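Under up to 29 alternatives per gene, the 16 called members gave 464 values, of which 0 had the other sign and 75 missed the threshold. Of the 16, 11 kept their call with any 1 tumor left out. The count of 15 lower members ranged from 11 to 16 with 1 tumor left out. It was 8 with median scaling, 1 on chip 1 alone, 9 on chip 2 alone, 9 at an adjusted p under 0.01 and 9 with the keratinocyte covariate. Among all genes the lower calls were 2418 as reported and 2018 to 2620 with 1 tumor left out. They were 135 on chip 1, 1783 on chip 2, 1514 at an adjusted p under 0.01 and 1492 with the keratinocyte covariate. The count of 1 higher member was 0 with the authors' values, without a detection filter, on chip 1 alone, at an adjusted p under 0.01 and with the keratinocyte covariate, and 0 to 2 with 1 tumor left out. Among all genes the higher calls in these settings were 1220, 2036 of 19057, 255, 1274 and 1488, and 1841 to 2375 with 1 tumor left out. The 22 lower genes of the further lists were 10 with median scaling and 1 on chip 1 alone, and the 4 higher were 8 with median scaling, 2 with the authors' values and 0 on chip 1 alone. The median of the sterol enzymes was −0.61 with median scaling, −1.63 with the authors' values, −1.59 on chip 1 and −0.59 on chip 2. That of the control genes was −0.011 with median scaling and −0.83 with the authors' values. Scaling set the median of all genes at 0.33 (median scaling) or −0.22 (the authors' values), from 0.011, and with it the split of 2228 higher and 2418 lower genes, which became 3845 and 902 or 1220 and 3820. Relative to all genes the sterol median was −1.04 as reported, −0.94 and −1.40. The sterol element was in 3 member promoters in its shorter and 2 in its degenerate form (TCANNCCAC), from 1. The cause was not tested. No paired analysis was possible because the labels give no pairing of tumors between the groups. The tumor numbers used here only follow the order of the samples within each group. Dim probes (Fasn, Mvk, Sc5d, Acaca, and Tm7sf2 in MPNST-like tumors) limit what is said of those genes.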
